A study of Mus musculus with 11 samples.

Results

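The collagen genes examined here are the protein-coding genes of the mouse whose symbol has the form of a collagen chain, Col followed by the type, the letter a and the chain number. They numbered 42 of the 49671 genes in the deposited count table and were followed across 11 sequencing libraries of sorted adrenal cells. The cells came from 6 male mice of the strain Nes-GFP, aged about 3.5 or 2.5 months, in which green fluorescent protein (GFP) reports the Nestin regulatory sequences. Adrenal cortex and adrenal medulla were separated by dissection, pooled from 2 mice at a time, digested with collagenase and sorted by GFP into tubes of 180 to 300 cells. The cortical GFP-positive group had 3 libraries, the cortical GFP-negative group 3, the medullary GFP-positive group 3 and the medullary GFP-negative group 2. The younger mice gave library 3 of each cortical group and libraries 2 and 3 of the medullary GFP-positive group, and the older mice gave the other 7 libraries, among them both of the medullary GFP-negative group. All groups carry the transgene, the labels name no treatment, and the gate reads the transgene rather than a cell type, so a group can hold several cell types. The labels tie no library to a pool of mice, so the p-values below measure only how far these libraries spread, which may in part be technical.

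Collagens are trimers of alpha chains wound into a triple helix, and a trimer may hold copies of 1 chain or different chains. Fibrillar collagens assemble into the fibrils of connective tissue, network collagens form the sheet of the basement membrane, and the fibril-associated collagens with interrupted triple helices (FACIT) decorate fibrils. Schwann cells, the glia of peripheral nerve, are surrounded by a basement membrane that they lay down themselves, while most fibrillar collagen of an organ comes from fibroblasts. In the adrenal gland a collagen-rich capsule encloses the cortex, and the medulla holds chromaffin cells of neural crest origin with their glia.

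Total counts lay between 18500690 and 29204212 per library, at which 3 counts correspond to 0.104 to 0.157 CPM (counts of a gene per 1000000 counts of the library, after scaling). Nes, the gene whose reporter set the gate, lay between 35.2 and 50.8 CPM in the cortical GFP-positive libraries and between 4.59 and 7.44 in the GFP-negative ones. In the medulla it lay between 69.2 and 178 CPM in GFP-positive and between 16.1 and 26.1 in GFP-negative libraries. Of 10 Schwann and glial markers, the summed level was 207 to 298 CPM in cortical GFP-positive, 4.17 to 12.2 in cortical GFP-negative, 2032 to 4825 in medullary GFP-positive and 16.1 to 24.3 in medullary GFP-negative libraries, where Sox10 and Foxd3 had no count. Of 10 pericyte and smooth muscle markers, it was 62.6 to 241, 2.09 to 6.86, 115 to 283 and 135 to 149 CPM in the same order. In the medullary GFP-negative libraries Rgs5 alone gave 138 and 118 CPM of it. Notch3 (mean 9.21 against 0.312 CPM) and Cspg4 (8.56 against 0.203) were higher in medullary GFP-positive cells, where the means of Kcnj8, Abcc9 and Des were lower. Of 10 fibroblast and capsule markers, the summed level was 30.1 to 57.0, 68.4 to 84.9, 5.58 to 10.7 and 57.9 to 86.7 CPM in the same order. Dpt was at 0 in every group but the medullary GFP-negative one, and Clec3b at 0 in both GFP-negative groups. Of 10 macrophage markers, it was 55.0 to 285, 3569 to 5249, 426 to 1260 and 19983 to 20931 CPM, and of 10 endothelial markers 88.1 to 278, 104 to 235, 242 to 346 and 310 to 1056. Steroid cell markers, summed over 10 genes, were abundant in every library and higher in the GFP-positive libraries of each tissue. They were at 64363 to 73942, 36935 to 41803, 23736 to 42133 and 9062 to 16790 CPM in the same order. Chromaffin markers summed to 5974 to 12319 CPM in the medullary and 1.14 to 173 CPM in the cortical libraries. By edgeR, 0 of the 10 endothelial markers were called between the gates of either tissue, a list too short to read as unchanged. Of all genes tested, 14.7% were called in the cortex and 21.4% in the medulla. In GFP-positive cells of the cortex 8 glial, 5 pericyte, 4 steroid and 3 chromaffin markers were called higher. In the medulla the numbers were 9, 2, 6 and 0. Called lower were 10 macrophage and 2 steroid markers in each tissue. Of 6 tested fibroblast markers 1 was called higher and 1 lower in the cortex, and 0 and 3 in the medulla. The part of these cell types in the collagen results was not tested, and in such bulk libraries fewer cells of a type and less RNA per cell cannot be told apart.

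Collagen messages were a larger part of the GFP-positive libraries. The 42 genes summed to 821, 972 and 873 CPM in the cortical GFP-positive libraries and to 291, 314 and 259 CPM in the cortical GFP-negative ones. In the medulla they summed to 1579, 2583 and 1124 CPM in GFP-positive and to 263 and 327 CPM in GFP-negative libraries. The GFP-positive and GFP-negative ranges did not overlap in either tissue. Medullary GFP-positive library 2 held the highest value of its group for 27 of the 36 tested members, and it also had the highest glial marker sum, 4825 CPM. Of the 42 members, 29 had their highest group mean in medullary GFP-positive cells, 6 in cortical GFP-positive cells, 7 in medullary GFP-negative cells and 0 in cortical GFP-negative cells. These numbers include the 6 members with too few counts to be tested. The same shares over all genes were not counted, so the numbers describe the members and do not set them apart from other genes.

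**Figure D1:**
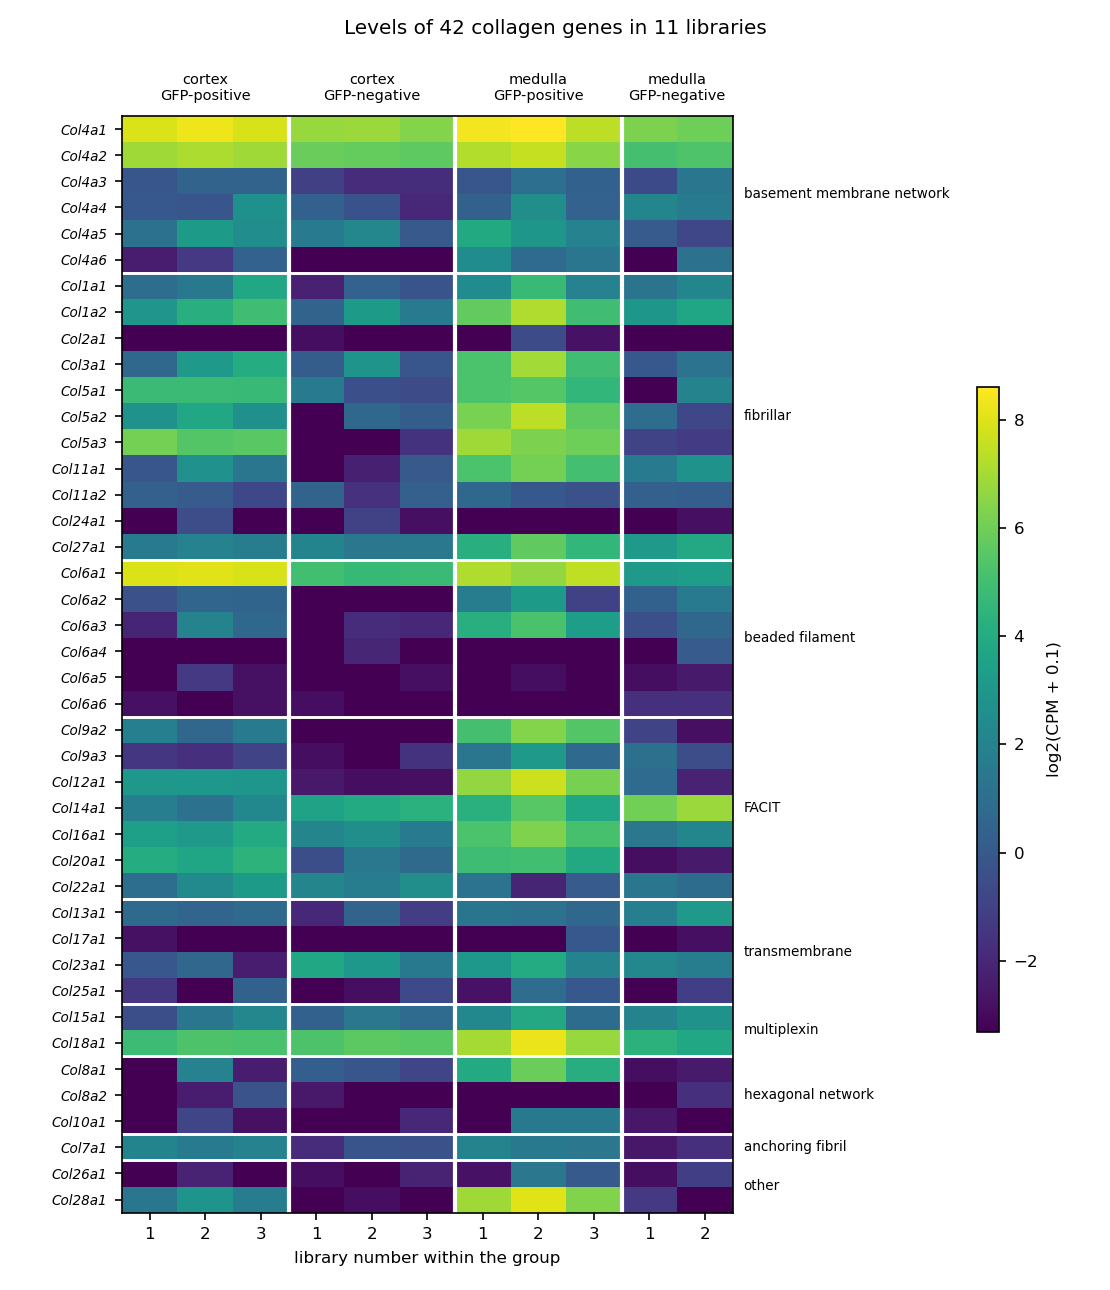
Levels of the 42 collagen genes (rows, grouped by class) in the 11 libraries (columns, grouped by tissue and gate), coloured by log2(CPM + 0.1). Col4a1, Col4a2 and Col6a1 are brighter in the GFP-positive than in the GFP-negative libraries of each tissue, and a block of fibrillar and FACIT genes is bright in the 3 medullary GFP-positive libraries.

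By group means the order of the leading chains differed between the groups, and Col4a1 was among the 3 highest in each. Per kilobase of the deposited gene length, cortical GFP-positive cells were led by Col6a1 (58.2 ± 3.98 CPM per kilobase, SD, n = 3), a chain of the beaded filaments of type VI, followed by the basement membrane chains Col4a1 (35.4 ± 5.94) and Col4a2 (19.2 ± 1.91). Cortical GFP-negative cells were led by Col4a1 (13.8 ± 2.08 CPM per kilobase, n = 3), Col4a2 (8.25 ± 0.602) and Col6a1 (6.53 ± 0.722). Medullary GFP-positive cells were led by Col4a1 (40.4 ± 15.3 CPM per kilobase, n = 3), Col6a1 (32.3 ± 8.37) and Col28a1 (31.3 ± 18.9), the type XXVIII chain described around peripheral glia, and these means lie within each other's spread. Medullary GFP-negative cells were led by the FACIT Col14a1 (12.8 ± 4.34 CPM per kilobase, n = 2), before Col4a1 (9.38 ± 1.15) and Col4a2 (5.61 ± 0.629). Together Col4a1, Col4a2 and Col6a1 held 68.1 to 75.2% of the collagen CPM in cortical GFP-positive libraries, 62.3 to 68.7% in cortical GFP-negative, 26.5 to 40.2% in medullary GFP-positive and 34.9 to 45.1% in medullary GFP-negative libraries. In the medullary GFP-positive group the remainder was spread over fibrillar chains (25.0% of the collagen CPM, mean of the library percentages), FACIT chains (16.1%) and multiplexins (10.2%).

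Of the 42 members, 36 had enough counts to be tested. The untested ones were the cartilage chain Col2a1, the hemidesmosome chain Col17a1, the type VI chains Col6a4, Col6a5 and Col6a6, and the type VIII chain Col8a2, none of which exceeded 0.974 CPM in any library. Changes are log2 fold changes from 1 edgeR quasi-likelihood fit over all 11 libraries, with p-values adjusted by the Benjamini-Hochberg method over 20893 genes, and a gene is called where the adjusted p is under 0.05. Between the gates of the cortex, 14 of 36 tested members were called higher in GFP-positive cells (7.14% of all genes tested were) and 2 lower (7.59% of all). With limma voom these became 8 higher and 0 lower, and Col5a2, Col6a2, Col6a3, Col12a1, Col14a1, Col16a1, Col23a1 and Col28a1 were no longer called (adjusted p = 0.0507 to 0.288). In the medulla 17 were called higher (10.2% of all genes) and 1 lower (11.1% of all), that is 18 of 36 in either direction (21.4% of all). The median change was 1.69 over the tested members against 0.03 over all genes in the cortex, and 2.72 against 0.09 in the medulla. The groups did not overlap, with GFP-positive above, for 17 tested members in the cortex (18.7% of all genes) and 20 in the medulla (25.6% of all). They did not overlap in the other direction for 2 members in each tissue, against 19.4% of all genes in the cortex and 22.5% in the medulla. These gate comparisons share no library. They share 1 estimate of the spread and draw on the same set of 6 mice, so they are not independent of each other. Of the members called higher, 13 were called in both tissues, which is 92.9% of the cortical list and 76.5% of the medullary list. Of all genes tested 889 were called higher in both (4.26%), which is 59.6% of the cortical and 41.6% of the medullary genes called higher. The 13 were Col4a1, Col4a2, Col5a1, Col5a2, Col5a3, Col6a1, Col6a3, Col7a1, Col9a2, Col12a1, Col16a1, Col20a1 and Col28a1. Col14a1 was called lower in both, in the cortex by edgeR and not by limma voom (adjusted p = 0.0517).

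**Figure D2:**
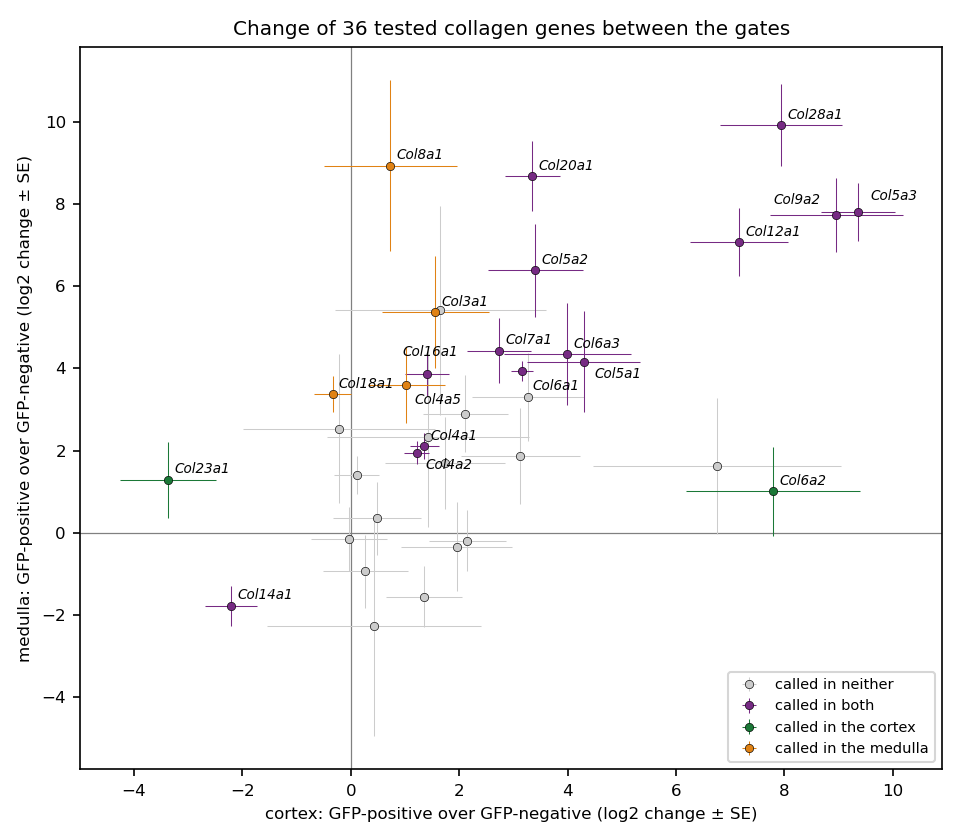
Change between the gates in the cortex (horizontal axis) and in the medulla (vertical axis) for the 36 tested collagen genes, as log2 change of GFP-positive over GFP-negative with the standard error. Most called genes lie in the upper right, Col14a1 lies at the lower left, and Col18a1 and Col8a1 lie far above 0 in the medulla and near 0 in the cortex.

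Sequence upstream of the start was looked at after 13 chains were called higher in both tissues. The shares below cover all members with a matched promoter, called or not, and were not computed for those 13 alone. Of the 13, Col5a2 and Col12a1 had no matched promoter. RefSeq promoters on GRCm38.p6, the assembly also called mm10, were matched by symbol for 33 of the 42 members (35 start sites), and the 250 bases before each start were searched on both strands. The letters GGGCGG, a GC box, were found in 62.9% of the 35 member windows and in 32.7% of all 32851 windows. The letters ACAAAG or AACAAT, which SOX factors such as the glial regulator Sox10 are known to prefer, were found in 11.4% of member windows and in 24.0% of all. TATAAA was found in 14.3% of member windows and 12.4% of all, and CACCTG, a form of E box, in 11.4% and 17.2%. Member windows had a median GC content of 59.6% against 52.4% over all windows, so these shares compare windows of unlike base composition. The 4 windows below were chosen after the values were seen, from the 19 that hold no annotated exon base. They belong to the largest rise in the cortex (Col5a3), the largest rise in the medulla (Col28a1), a chain called higher in the medulla and not in the cortex (Col3a1) and the largest fall in the cortex (Col23a1). Each reads 5′ to 3′ on the strand of the gene and ends at the base before the start, and capitals mark the SOX-type letters or the GC box on either strand.
Col5a3: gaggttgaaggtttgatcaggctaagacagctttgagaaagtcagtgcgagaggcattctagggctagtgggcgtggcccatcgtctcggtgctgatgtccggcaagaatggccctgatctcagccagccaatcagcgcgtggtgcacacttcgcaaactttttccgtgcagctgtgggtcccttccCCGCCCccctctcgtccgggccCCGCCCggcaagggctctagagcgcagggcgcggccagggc
Col28a1: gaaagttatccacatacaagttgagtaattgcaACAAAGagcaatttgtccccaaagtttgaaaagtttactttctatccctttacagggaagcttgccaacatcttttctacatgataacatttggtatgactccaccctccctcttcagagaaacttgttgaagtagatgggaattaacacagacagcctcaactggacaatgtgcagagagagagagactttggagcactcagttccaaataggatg
Col3a1: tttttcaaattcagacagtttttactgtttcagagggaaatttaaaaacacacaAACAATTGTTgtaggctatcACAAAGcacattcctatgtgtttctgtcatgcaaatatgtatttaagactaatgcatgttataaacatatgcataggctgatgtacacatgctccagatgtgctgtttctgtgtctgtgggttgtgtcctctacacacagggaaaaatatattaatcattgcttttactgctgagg
Col23a1: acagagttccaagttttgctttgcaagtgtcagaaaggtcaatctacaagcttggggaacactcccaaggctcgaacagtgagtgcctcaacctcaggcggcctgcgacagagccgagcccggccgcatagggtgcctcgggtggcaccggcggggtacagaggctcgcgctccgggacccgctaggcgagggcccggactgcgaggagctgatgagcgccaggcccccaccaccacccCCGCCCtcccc
The Col5a3 window (chr9:20815068-20815317, minus strand) has 62.8% GC, 17 CpG dinucleotides and 2 GC boxes, at 63 to 58 and at 41 to 36 bases before the start. The Col28a1 window (chr6:8192618-8192867, minus strand) has 40.4% GC, 0 CpG and 1 ACAAAG at 217 to 212 bases before the start. The Col3a1 window (chr1:45311288-45311537, plus strand) has 35.2% GC and 0 CpG. It holds AACAAT on each strand, at 196 to 191 and at 192 to 187 bases, sharing 2 bases, and ACAAAG at 176 to 171. The Col23a1 window (chr11:51289670-51289919, plus strand) has 66.0% GC, 18 CpG and 1 GC box at 11 to 6 bases. A match is a description of letters in the window, and a window without a match says nothing about the factor. The windows of Col5a3 and Col28a1 are of unlike base composition, and the window of Col23a1 resembles that of Col5a3 in GC and CpG content. Any relation of base composition to the change between the gates was not tested.

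Among the network chains of the basement membrane, Col4a1 and Col4a2 rose in both tissues. Their products form the most widespread type IV trimer, and the genes lie head to head on chromosome 8 (mm10), with starts at 11312826 on the minus strand and 11312805 on the plus strand. Col4a1 measured 244, 315 and 235 CPM in cortical GFP-positive and 110, 114 and 85.4 CPM in cortical GFP-negative libraries. In the medulla it measured 340, 392 and 174 CPM in GFP-positive and 76.1 and 64.0 CPM in GFP-negative libraries. Every GFP-positive library was above every GFP-negative one of its tissue. The change was 1.36 (SE 0.271, adjusted p = 0.00812) in the cortex and 2.11 (SE 0.323, adjusted p = 0.00141) in the medulla. Col4a2 rose by 1.22 (SE 0.230) and 1.95 (SE 0.273). Per kilobase, Col4a1 stood at 1.41 to 2.02 times Col4a2 in all 11 libraries, with a median of 1.81, and the genes share 22 exonic bases that unstranded counting cannot assign.

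The other type IV chains were low. Col4a5, which forms the trimer of the kidney filter with Col4a3 and Col4a4 and is also paired with Col4a6 in smooth muscle, measured 15.3, 7.89 and 3.86 CPM in medullary GFP-positive and 0.986 and 0.487 CPM in medullary GFP-negative libraries. It rose there by 3.60 (SE 0.930, adjusted p = 0.0203), a call lost without GFP-positive library 1 (adjusted p = 0.0510) or GFP-negative library 1 (0.0665) or 2 (0.133). In the cortex Col4a5 overlapped between the gates (2.18 to 8.84 against 0.905 to 4.48 CPM). Col4a3, Col4a4 and Col4a6 were called between the gates in neither tissue and stayed at or under 6.30 CPM in every library.

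Among the fibrillar chains, the type V genes rose in both tissues while the type I genes did not pass the test with all 11 libraries. Type V collagen is a minor fibrillar collagen that sits inside fibrils and limits their width, and its chain Col5a3 has been described in Schwann cells. Col5a3 measured 69.8, 42.2 and 47.1 CPM in cortical GFP-positive libraries, against 0, 0 and 0.236 CPM in cortical GFP-negative ones. In the medulla it measured 122, 75.5 and 62.9 CPM in GFP-positive and 0.438 and 0.325 CPM in GFP-negative libraries. It was near the counting floor in all 5 GFP-negative libraries and above 42 CPM in all 6 GFP-positive ones. The change was 9.36 (SE 0.683, adjusted p = 6.64e-05) in the cortex and 7.80 (SE 0.705, adjusted p = 8.7e-05) in the medulla.

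Col5a1, the chain present in nearly every type V trimer, measured 27.7, 27.9 and 26.4 CPM in cortical GFP-positive and 2.91, 0.661 and 0.590 CPM in cortical GFP-negative libraries. In the medulla it measured 37.5, 44.6 and 24.2 CPM against 0 and 3.98 CPM. The gates did not overlap in either tissue, with changes of 4.29 (SE 1.05, adjusted p = 0.0218) and 4.16 (SE 1.23, adjusted p = 0.0361). The cortical call was lost without GFP-negative library 2 (adjusted p = 0.0769) or 3 (0.0816), and the medullary call without GFP-positive library 1 (0.0656), 2 (0.0665) or 3 (0.0525). Col5a2 measured 73.7, 170 and 51.0 CPM in medullary GFP-positive and 1.83 and 0.487 CPM in medullary GFP-negative libraries, and 6.89, 13.8 and 6.17 CPM against 0, 1.47 and 1.06 CPM in the cortex. It rose by 6.39 (SE 1.14, adjusted p = 0.00311) in the medulla and 3.40 (SE 0.873, adjusted p = 0.0267) in the cortex, where the call was lost without GFP-positive library 2 (0.0734) or GFP-negative library 3 (0.0765). The balance of type V chains differed by tissue in the GFP-positive libraries. Per kilobase Col5a1 was 2.28 to 4.83 times Col5a2 in the cortex and 0.297 to 0.575 times Col5a2 in the medulla, and these ranges do not overlap.

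Col3a1, whose homotrimer accompanies type I collagen in vessel walls and soft organs, measured 37.2, 123 and 30.8 CPM in medullary GFP-positive and 0.876 and 2.23 CPM in medullary GFP-negative libraries. It rose by 5.36 (SE 1.36, adjusted p = 0.0190) there, a call lost without GFP-negative library 1 (0.117) or 2 (0.0794). In the cortex it measured 1.56, 8.46 and 16.6 against 1.04, 7.12 and 0.827 CPM, overlapping, and was not called. The type I chains Col1a1 and Col1a2, the bulk of most connective tissue, were not called in any comparison with all libraries. Col1a2 measured 53.0, 147 and 30.5 CPM in medullary GFP-positive and 7.96 and 12.7 CPM in GFP-negative libraries without overlap (change 2.90, adjusted p = 0.0523). Col1a2 gained a call in the medulla without GFP-positive library 3 (0.0420) and in the cortex without GFP-negative library 2 (0.0441). Col1a2 stood at 1.17 to 6.16 times Col1a1 per kilobase over the 11 libraries. Of the cartilage-associated fibrillar chains, Col11a1 measured 37.0, 70.0 and 33.3 CPM in medullary GFP-positive and 2.85 and 6.62 CPM in GFP-negative libraries (change 3.31, adjusted p = 0.0536), and its partner Col11a2 stayed at or under 1.50 CPM in all 11 libraries. Col27a1 measured 18.1, 51.9 and 23.5 against 8.80 and 14.6 CPM in the medulla (change 1.41, adjusted p = 0.0540), and Col24a1 reached at most 0.601 CPM. Col27a1 gained a call in the medulla without GFP-positive library 1 (0.0292). Col11a1 gained a call in the cortex without GFP-positive library 1 (0.0407) or GFP-negative library 3 (0.0223).

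In type VI, Col6a1 was abundant while the chains it pairs with were scarce. A type VI molecule is assembled from Col6a1, Col6a2 and Col6a3 chains, or from Col6a4, Col6a5 or Col6a6 in place of the last. Col6a1 measured 251, 274 and 240 CPM in cortical GFP-positive and 32.1, 25.8 and 27.9 CPM in cortical GFP-negative libraries. In the medulla it measured 145, 103 and 176 CPM against 8.51 and 9.94 CPM. The GFP-positive libraries were well above the GFP-negative ones in both tissues, with changes of 3.15 (SE 0.200, adjusted p = 3.8e-05) and 3.94 (SE 0.249, adjusted p = 2.55e-05). Both calls were kept without each library in turn.

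Col6a2 measured 0.667, 1.37 and 1.35 CPM in cortical GFP-positive libraries and had no count in the 3 cortical GFP-negative ones, so it was at least 30.0-fold higher, taking 3 counts over the group as the floor (adjusted p = 0.0148). In the medulla it measured 3.10, 9.00 and 0.417 against 1.20 and 2.96 CPM, overlapping, and was not called. Col6a3 measured 18.5, 36.5 and 10.1 CPM in medullary GFP-positive and 0.657 and 1.46 CPM in GFP-negative libraries, a rise of 4.36 (SE 1.24, adjusted p = 0.0311). In the cortex it measured 0.133, 3.99 and 1.53 against 0, 0.184 and 0.157 CPM, where the groups overlapped and the change was 4.00 (SE 1.17, adjusted p = 0.0455). The medullary call of Col6a3 was lost without GFP-positive library 1 (0.0537) or 2 (0.0803) or GFP-negative library 1 (0.154) or 2 (0.104). Its cortical call was lost without GFP-positive library 2 (0.155) or 3 (0.0717) or GFP-negative library 1 (0.119), 2 (0.0934) or 3 (0.112).

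The level per kilobase of Col6a1 was 337 to 715 times that of Col6a2 in cortical GFP-positive libraries, 21.7 to 801 times in medullary GFP-positive and 6.38 to 13.4 times in medullary GFP-negative libraries. Against Col6a3, Col6a1 was 187 to 5137 times as high per kilobase in cortical GFP-positive libraries and 7.69 to 47.7 times in medullary GFP-positive ones. Col4a1 and Col4a2, by comparison, differed by at most 2.02 times in any library. No exon of another annotated gene overlaps Col6a2.

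**Figure D3:**
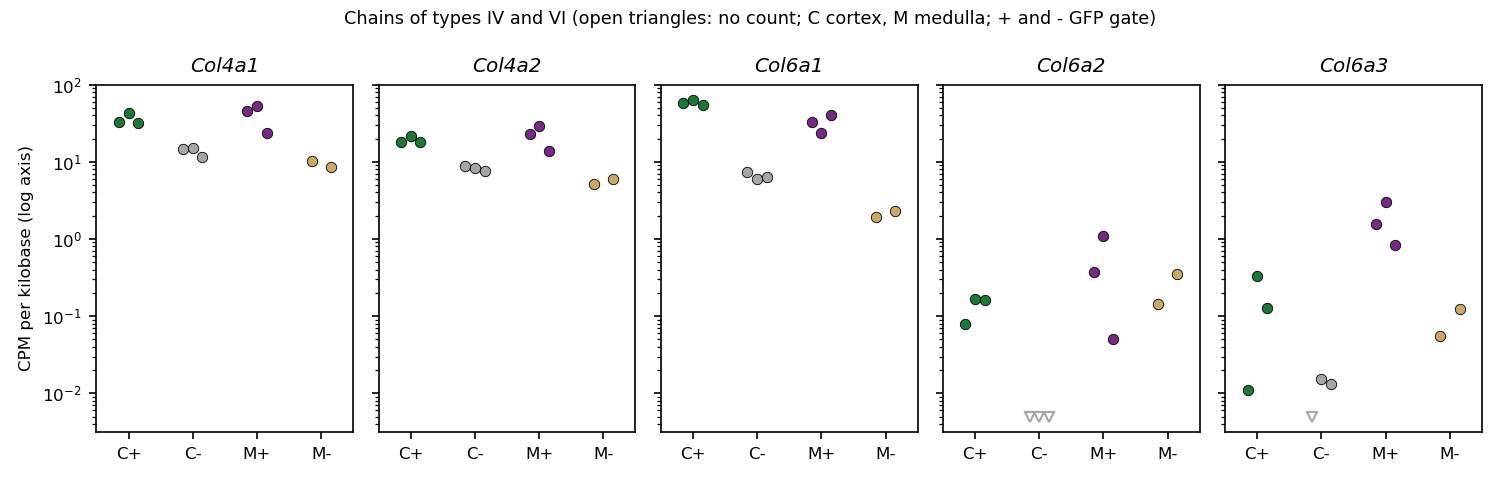
Level per kilobase (log axis) of the type IV chains Col4a1 and Col4a2 and the type VI chains Col6a1, Col6a2 and Col6a3 in each library, by tissue and gate; open triangles mark libraries with no count. The type IV chains run side by side in all groups, whereas Col6a2 and Col6a3 lie below Col6a1 in every library.

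Among the FACIT chains, Col9a2, Col12a1, Col16a1 and Col20a1 rose in both tissues and Col14a1 fell in both. Col12a1, a chain that coats fibrils in tendon and ligament, measured 8.05, 8.20 and 7.61 CPM in cortical GFP-positive and 0.0746, 0.0367 and 0.0394 CPM in cortical GFP-negative libraries. Its medullary levels were 102, 208 and 72.8 CPM in GFP-positive and 1.72 and 0.122 CPM in GFP-negative libraries. The cortical GFP-negative values are 1 or 2 counts each. The change was 7.16 (SE 0.903, adjusted p = 0.000839) in the cortex and 7.09 (SE 0.832, adjusted p = 0.000325) in the medulla.

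Col9a2, a chain of the type IX collagen best known from cartilage, measured 3.43, 1.46 and 2.79 CPM in cortical GFP-positive libraries and had no count in the cortical GFP-negative ones, at least 67.4-fold higher (adjusted p = 0.00248). Its medullary levels were 34.0, 84.5 and 42.8 CPM against 0.438 and 0.0406 CPM, a rise of 7.75 (SE 0.906, adjusted p = 0.000749). Its partner Col9a3 was called between the gates in neither tissue, and 6.07% of its exonic bases are shared with Tcfl5 on the opposite strand. The type IX chain Col9a1 was outside the members because it is not in the deposited comparison tables, and had 2 counts in all 11 libraries together.

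Col20a1, a FACIT of little studied function, measured 16.5, 13.2 and 20.8 CPM in cortical GFP-positive and 0.634, 2.64 and 1.65 CPM in cortical GFP-negative libraries. Its medullary levels were 30.2, 32.3 and 15.1 CPM in GFP-positive and 0.0365 and 0.0812 CPM in GFP-negative libraries. Both gates separated, and the medullary GFP-negative values rest on 3 counts in all. The change was 3.35 (SE 0.500, adjusted p = 0.00191) in the cortex, and in the medulla the fitted change was 8.68 (adjusted p = 0.00013), against a ratio of levels of 465 whose 95% counting interval ran from 159 to 2255. Col16a1 measured 37.1, 78.1 and 35.4 against 2.52 and 4.42 CPM in the medulla and rose by 3.86 (SE 0.524, adjusted p = 0.000718). In the cortex Col16a1 rose by 1.41 (SE 0.406, adjusted p = 0.0427), a call lost without GFP-positive library 1 (0.0691) or 3 (0.127) or GFP-negative library 1 (0.113) or 3 (0.138).

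Col14a1, a FACIT of dense connective tissue, ran the other way. It measured 3.34, 2.19 and 4.64 CPM in cortical GFP-positive and 11.8, 15.8 and 19.3 CPM in cortical GFP-negative libraries. Its medullary levels were 19.2, 46.1 and 12.9 CPM in GFP-positive and 68.2 and 111 CPM in GFP-negative libraries, the highest levels of any group. Every GFP-negative library was above every GFP-positive one of its tissue. The gene fell by 2.21 (SE 0.479, adjusted p = 0.0126) in the cortex and by 1.78 (SE 0.490, adjusted p = 0.0267) in the medulla, where the call was lost without GFP-positive library 1 (0.0810) or 3 (0.0636) or GFP-negative library 2 (0.170). The cortical call was also lost with limma voom (0.0517). The summed macrophage markers were likewise higher in the GFP-negative libraries of both tissues. The summed fibroblast markers were higher there as well, 57.9 to 86.7 against 5.58 to 10.7 CPM in the medulla and 68.4 to 84.9 against 30.1 to 57.0 CPM in the cortex, but the cortical list was mixed. Fbln1 (mean 61.2 against 8.71 CPM) and Rspo3 (10.3 against 0.391) were at the higher level in cortical GFP-negative cells. Dcn (1.93 against 22.7) and Lum (0.22 against 11.5) were at the lower level there. Pdgfra had no clear direction in the cortex, at 1.01, 2.17 and 0.748 CPM in GFP-negative libraries. Its GFP-positive libraries measured 0, 0.0429 and 8.51 CPM, so only library 3 lay above the GFP-negative ones. Of 6 tested fibroblast markers 1 was called higher and 1 lower in the cortex. The part of either list in the result was not tested. The remaining FACIT chain, Col22a1 of the muscle-tendon junction, was called in no comparison.

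Outside these classes, Col28a1 and Col8a1 had the largest medullary changes. Col28a1 measured 122, 258 and 80.7 CPM in medullary GFP-positive and 0.292 and 0 CPM in medullary GFP-negative libraries. In the cortex it measured 2.49, 7.21 and 3.24 CPM in GFP-positive libraries and had 1 count in all in the 3 GFP-negative ones. Every GFP-positive library was above every GFP-negative one of its tissue, and the medullary GFP-negative group had 8 counts in all. The change was 9.93 (SE 1.01, adjusted p = 0.000152) in the medulla, and in the cortex the ratio of levels was 346, its 95% counting interval running from 61.6 to 13708, at an adjusted p = 0.0015. Col8a1, which forms hexagonal networks in vessel walls and beneath the corneal endothelium, measured 15.8, 60.1 and 17.1 CPM in medullary GFP-positive libraries and 3 counts in all in the 2 GFP-negative ones. The ratio was 609 (counting interval 208 to 2954, adjusted p = 0.0127), and the call was lost without GFP-negative library 1 (0.0848) or 2 (0.0803). In the cortex Col8a1 overlapped between the gates, and 3.82 CPM in GFP-positive library 2 stood against 0 and 0.0900 CPM in the other GFP-positive libraries.

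Col7a1, the anchoring fibril chain that fastens the epidermis to the dermis, rose at low levels. It measured 4.05, 3.05 and 3.78 against 0.187, 0.771 and 0.669 CPM in the cortex and 3.92, 2.71 and 2.56 against 0.0730 and 0.203 CPM in the medulla. The gates did not overlap, with changes of 2.73 (SE 0.595, adjusted p = 0.0127) and 4.43 (SE 0.789, adjusted p = 0.00311). Among the transmembrane collagens, which stay anchored in the cell surface, Col23a1 measured 0.845, 1.42 and 0.0900 CPM in cortical GFP-positive and 13.7, 8.22 and 2.76 CPM in cortical GFP-negative libraries. It fell by 3.38 (SE 0.889, adjusted p = 0.0300) there, a call lost without GFP-positive library 1 (0.0744) or 3 (0.0542) or GFP-negative library 1 (0.0893) or 2 (0.0623). In the medulla Col23a1 measured 8.10, 16.4 and 3.91 against 4.49 and 3.25 CPM and was not called. Col13a1 and Col25a1, the other tested transmembrane chains, were called between the gates in neither tissue, and neither were Col10a1, Col15a1 and Col26a1.

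**Figure D4:**
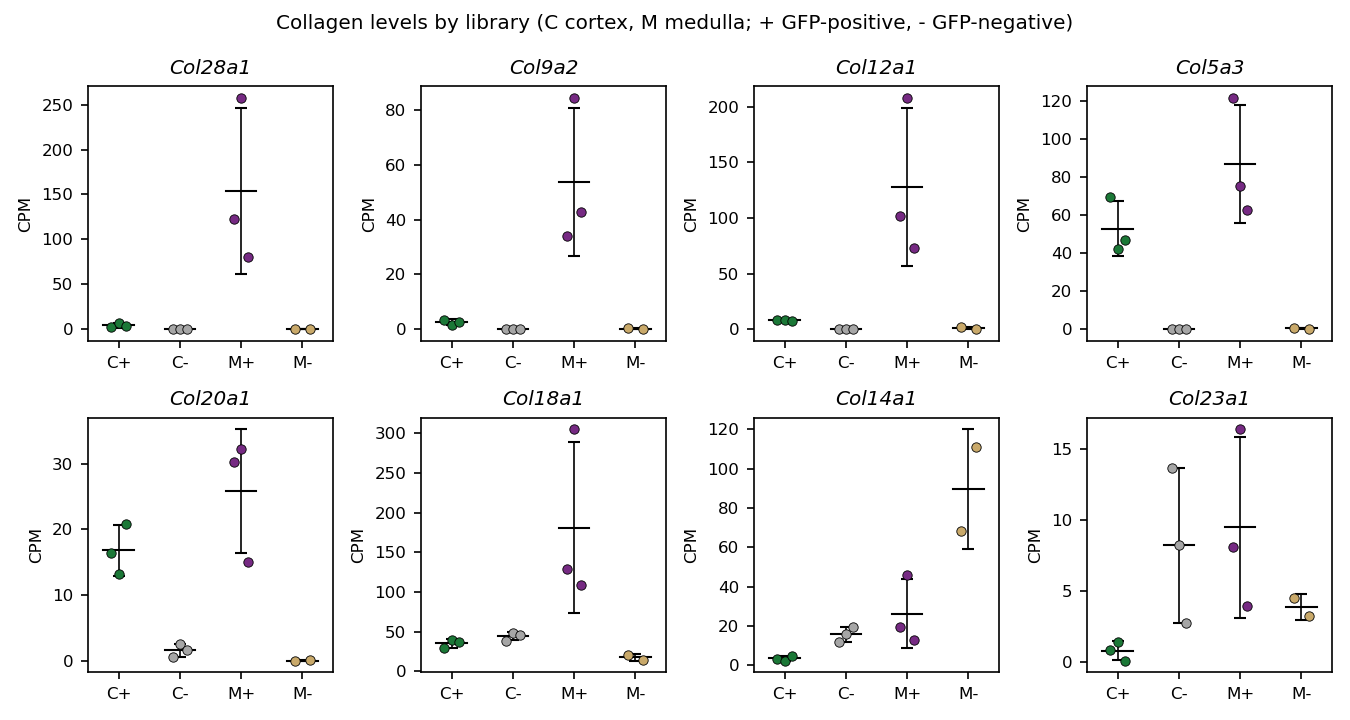
CPM in each library (points) with the group mean and SD (bars) for 8 collagen genes; C+ and C− are cortical and M+ and M− medullary GFP-positive and GFP-negative libraries. The first 5 genes are at or under 2.64 CPM in GFP-negative cells of both tissues, Col18a1 separates the gates in the medulla but not in the cortex, and Col14a1 and cortical Col23a1 are higher in GFP-negative cells.

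GFP-positive cells of the cortex and the medulla were then compared with each other, in the same fit and with the libraries already used above. Of 36 tested members, 13 were called lower in cortical GFP-positive cells (9.45% of all genes tested were) and 1 higher (6.04% of all), and the median change, cortex over medulla, was -1.95 against -0.03 over all genes. The groups did not overlap with the cortex below for 15 members (18.5% of all genes) and with the cortex above for 1 (16.0% of all). The members called lower included the FACIT chains Col9a2, Col9a3, Col12a1, Col14a1 and Col16a1, the fibrillar chains Col5a2, Col11a1 and Col27a1, and Col6a3, Col8a1, Col18a1, Col23a1 and Col28a1. Col28a1 fell the most steeply, at 2.49 to 7.21 CPM in the cortex against 80.7 to 258 CPM in the medulla (change -5.15, SE 0.619, adjusted p = 0.000746). Among the called members Col8a1 came next (change -4.56, SE 1.30, adjusted p = 0.0404). Col9a2 (-4.39, SE 0.614) and Col12a1 (-4.01, SE 0.581) followed, and the calls of these last 2 were kept without each library in turn. Col6a1 was the exception, higher in the cortex at 240 to 274 CPM against 103 to 176 CPM (change 0.85, SE 0.185, adjusted p = 0.0128). Glial markers summed to 207 to 298 CPM in the cortical and 2032 to 4825 CPM in the medullary GFP-positive libraries, and their part in these differences was not tested. Of the 14 calls, 8 were kept without each library in turn. Col5a2 and Col11a1 were lost without cortical library 1 or 3 or medullary library 2 (adjusted p = 0.0593 to 0.0742), and Col23a1 without cortical library 1 or medullary library 2 (0.0711 and 0.0755). Col6a3 was lost without cortical library 1 or 3 or medullary library 1 or 2 (0.0570 to 0.135). Col8a1 was lost without cortical library 1 or 3 or any medullary library (0.0534 to 0.147), and Col9a3 without any cortical library or medullary library 1 or 2 (0.0539 to 0.168). The count of called members fell from 14 to 8 without cortical library 1, to 8 without medullary library 2 and to 9 without cortical library 3.

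Other chains of the GFP-positive cells did not pass the test between the tissues. Col4a1 differed by -0.19 (SE 0.266), Col4a2 by -0.18 (SE 0.226), Col5a1 by -0.37 (SE 0.893), Col7a1 by 0.24 (SE 0.551) and Col20a1 by -0.62 (SE 0.449), none of them called. The standard errors are large enough that larger differences remain possible, so these values do not show that the levels are equal. Col5a3 was at 42.2 to 69.8 CPM in the cortex and 62.9 to 122 CPM in the medulla, overlapping (change -0.71, SE 0.406, adjusted p = 0.286). These 6 chains were taken from the members not called between the tissues, and all 6 overlapped.

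In GFP-negative cells 8 members were called lower in the cortex than in the medulla (10.6% of all genes tested were) and 3 higher (8.06% of all). The median change was -0.87 against -0.02 over all genes, and the groups did not overlap with the cortex below for 14 members (26.1% of all genes) and with the cortex above for 7 (23.4% of all). Col14a1 measured 11.8 to 19.3 CPM in the cortex against 68.2 and 111 CPM in the medulla (change -2.52, SE 0.497, adjusted p = 0.00795, and 0.0660 without medullary library 2). Col6a2 had no count in the cortex and 106 counts in the medulla, at least 54.0-fold lower (adjusted p = 0.0101). Col13a1, Col27a1, Col4a3, Col9a3, Col11a1 and Col12a1 were lower too, and Col4a3 shares 5.65% of its exonic bases with an opposite-strand transcript. Higher in the cortex were Col6a1 (change 1.63, SE 0.223, adjusted p = 0.00162), Col18a1 (1.35, SE 0.405, adjusted p = 0.0433) and Col20a1, at 0.634 to 2.64 CPM against 3 counts in all (ratio 28.6, 95% counting interval 9.57 to 140, adjusted p = 0.00472). The calls of Col6a1, Col6a2 and Col20a1 were kept without each library in turn. With limma voom the call of Col20a1 was lost (adjusted p = 0.0907). Those of Col4a3, Col9a3, Col11a1, Col12a1 and Col18a1 were lost as well (adjusted p = 0.053 to 0.464). Without medullary library 2 the calls of Col4a3 (adjusted p = 0.471), Col11a1 (0.190), Col13a1 (0.128), Col27a1 (0.129), Col9a3 (0.0744) and Col18a1 (0.260) were lost, and without medullary library 1 those of Col12a1 (0.598), Col9a3 (0.207) and Col18a1 (0.0739). Leaving out a cortical library also lost Col4a3, Col12a1 and Col18a1 (any of the 3), Col9a3 and Col11a1 (library 1 or 2), Col27a1 (library 2 or 3) and Col13a1 (library 3), at adjusted p from 0.0511 to 0.134. The number called fell from 11 to 6, 5 and 7 without cortical GFP-negative library 1, 2 and 3 and to 5 without medullary library 2.

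Whether the gate change itself differed between the tissues was tested as the cortical change minus the medullary change. Of 36 tested members, 0 had a larger change in the cortex (0.857% of all genes tested did) and 2 a smaller one (0.756% of all, and 1.61% in either direction), namely Col18a1 and Col20a1. Col18a1, the basement membrane zone collagen whose C-terminal fragment is endostatin, measured 28.7, 39.2 and 36.9 CPM in cortical GFP-positive and 38.5, 48.6 and 45.5 CPM in cortical GFP-negative libraries. Its medullary levels were 129, 306 and 109 CPM in GFP-positive and 20.5 and 14.3 CPM in GFP-negative libraries. The cortical gates overlapped (change -0.34, SE 0.346, adjusted p = 0.561), whereas the medullary gates separated (change 3.38, SE 0.446, adjusted p = 0.00062). The difference of these changes was -3.72 (SE 0.549, adjusted p = 0.0212), lost without cortical GFP-negative library 2 (0.0509) or medullary GFP-negative library 2 (0.0839). Col20a1 rose in both tissues, with a difference of -5.33 (SE 0.944, adjusted p = 0.0295). That call was lost on leaving out GFP-positive library 1 (0.0567) or 2 (0.0549) of the cortex, GFP-negative library 2 (0.0606) or 3 (0.0568) of the cortex, or either GFP-negative library of the medulla (0.0735 and 0.106). With limma voom the difference of Col20a1 was not called (adjusted p = 0.176). Beside the 0 calls for a larger change in the cortex from edgeR, 3 members (Col4a3, Col6a2 and Col13a1) lay on that side at an unadjusted p under 0.05, and 9 lay on the other. The share of all genes at that unadjusted threshold was not counted, so neither number can be read as a lean of the collagens. For a larger change in the cortex DESeq2 called 1 member and limma voom 0.

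Genes that act on collagen were followed as 6 lists of 75 genes, 66 of them tested. In the cortex 9 were called higher in GFP-positive cells (7.14% of all genes tested were) and 4 lower (7.59% of all, a share near that of the 66), and the median change over the 66 was 0.24 against 0.03 over all genes. In the medulla 22 were called higher (10.2% of all genes) and 8 lower (11.1% of all, again near the share of the 66), with a median of 0.72 against 0.09, and the 30 calls became 15 without GFP-negative library 2. The single lists are small, and their counts stand beside those shares of all genes with no test of a list. Of 18 enzymes and chaperones that modify and fold the chains inside the cell, 0 were called higher and 1 lower in the cortex (7.14% and 7.59% of all genes), and 6 higher and 2 lower in the medulla (10.2% and 11.1% of all). Among them the collagen chaperone Serpinh1 measured 94.5, 106 and 49.8 CPM in medullary GFP-positive and 30.3 and 42.2 CPM in GFP-negative libraries, a rise of 1.20 (SE 0.314, adjusted p = 0.0212). Its call was lost without GFP-positive library 1 (0.0549) or 2 (0.0546) or GFP-negative library 1 (0.136). The proline hydroxylase subunit P4ha3 had 3 counts in the GFP-negative libraries and stood 90.7 times higher in the others (95% counting interval 30.8 to 442, adjusted p = 0.0131), lost without GFP-negative library 1 (0.0675) or 2 (0.0878), while the galactosyltransferase Colgalt1 fell by 1.29 (SE 0.210).

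Of the 7 cross-linking genes, 4 were called higher in the medulla (10.2% of all genes were) and 1 in the cortex (7.14% of all). Loxl2, a lysyl oxidase that joins neighbouring molecules and acts on type IV networks, measured 9.65, 10.4 and 10.2 CPM in cortical GFP-positive and 1.49, 1.43 and 0.708 CPM in cortical GFP-negative libraries. It rose by 3.05 (SE 0.714, adjusted p = 0.0178) there and by 3.13 (SE 0.854, adjusted p = 0.0258) in the medulla. The cortical call was lost without GFP-negative library 2 (0.0519) or 3 (0.0700) and the medullary call without GFP-positive library 1 (0.0606). Loxl1 (change 3.98, SE 0.955), Loxl3 (1.81, SE 0.425) and Pxdn, the peroxidasin that makes the sulfilimine bond of type IV collagen (2.69, SE 0.744), rose in the medulla. All 3 calls were lost without GFP-negative library 2 (0.0908 to 0.111), those of Loxl1 (0.0642) and Pxdn (0.140) also without library 1, and that of Pxdn also without GFP-positive library 2 (0.0691). Of the 10 tested genes for secretion and propeptide removal, the transcription factor Creb3l1, which drives secretory and collagen genes, was the 1 called higher in the cortex, at 39.3 to 44.4 against 1.46 to 4.29 CPM (change 3.74, SE 0.746, adjusted p = 0.00814). In the medulla the procollagen proteinases Bmp1 (change 1.64, SE 0.300) and Adamts3 were called higher. Adamts3 had no count in the GFP-negative libraries and was at least 56.9-fold higher, a call lost without GFP-negative library 1 (0.0665) or 2 (0.0695).

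Of 12 tested collagen receptors, 3 were called higher and 2 lower in the cortex (7.14% and 7.59% of all genes), and 3 higher and 3 lower in the medulla (10.2% and 11.1% of all). Adgrg1, the adhesion receptor that binds type III collagen, measured 39.8, 43.9 and 34.6 against 7.80, 10.5 and 6.14 CPM in the cortex and 70.3, 119 and 72.8 against 8.54 and 13.7 CPM in the medulla. Its gates separated in both tissues, with changes of 2.27 (SE 0.288, adjusted p = 0.000862) and 2.98 (SE 0.347, adjusted p = 0.00031). The discoidin receptor Ddr1 rose by 1.81 (SE 0.257) in the medulla. The integrin chain Itga2 rose in the cortex, against 1 count in the GFP-negative libraries (ratio 209, 95% counting interval 37.1 to 8307), a call lost without GFP-negative library 1 (0.0549) or 3 (0.0581). Its relative Itga1 rose by 3.38 (SE 0.758) in the medulla, lost without GFP-negative library 1 (0.0526) or 2 (0.0830). The discoidin receptor Ddr2, the remaining receptor called higher in the cortex, lost its call whichever of the 6 cortical libraries was left out. Mrc1 and Lair1, which macrophages and other leukocytes carry, fell in both tissues. Mrc1 is also in the macrophage marker list. It measured 2.27 to 8.46 against 67.5 to 88.7 CPM in the cortex and 7.88 to 19.8 against 570 and 639 CPM in the medulla.

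Of 10 tested genes for degradation and its inhibitors, 2 were called higher and 1 lower in the cortex (7.14% and 7.59% of all genes), and 5 higher and 1 lower in the medulla (10.2% and 11.1% of all). The metalloproteinase inhibitor Timp2 measured 137, 164 and 152 against 28.9, 32.2 and 36.1 CPM in the cortex and rose by 2.22 (SE 0.208, adjusted p = 0.000201), and by 1.29 (SE 0.231) in the medulla. Timp4 had no count in the cortical GFP-negative libraries and was at least 63.1-fold higher, and Ctsk, the cathepsin that cuts native collagen, rose by 6.51 (SE 1.05) in the medulla. The collagenase Mmp13 fell by 5.12 (SE 1.16) in the cortex and by 6.23 (SE 1.22) in the medulla, the cortical call being lost without GFP-positive library 2 (0.0598). Of 9 tested fibril partners, the proteoglycan Bgn rose by 3.53 (SE 0.753) in the cortex and 3.58 (SE 0.872) in the medulla, where the call was lost without GFP-negative library 1 (0.0759) or 2 (0.103). Lum, a proteoglycan of fibroblasts that is also in the fibroblast marker list, rose by 5.66 (SE 1.52, adjusted p = 0.0321) in the cortex and was lower in the medulla, with 1 count in the GFP-positive group and 20.4 and 1.50 CPM in the GFP-negative libraries (ratio 770, 95% counting interval 138 to 30464, adjusted p = 0.0104). The cortical call was lost without GFP-negative library 1 (0.0852) or 3 (0.0916) or GFP-positive library 3 (0.0968), and the medullary call without GFP-negative library 1 (0.0718). The gate change of Lum, Fkbp14, Timp3 and Sparc was called different between the tissues, 4 of the 66 (1.61% of all genes tested were). With the replicate number as a block, or with age as a covariate, 0 of these 4 kept the call. Leaving out GFP-negative library 1 or 3 of the cortex brought that count to 0. Leaving out GFP-positive library 1 or 2 or GFP-negative library 2 of the cortex, or GFP-negative library 2 of the medulla, brought it to 1. Sparc, a secreted collagen chaperone, was at 1330 to 1944 CPM in the cortical libraries of both gates, and at 2262 to 4622 CPM in medullary GFP-positive against 471 and 803 CPM in GFP-negative libraries.

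**Figure D5:**
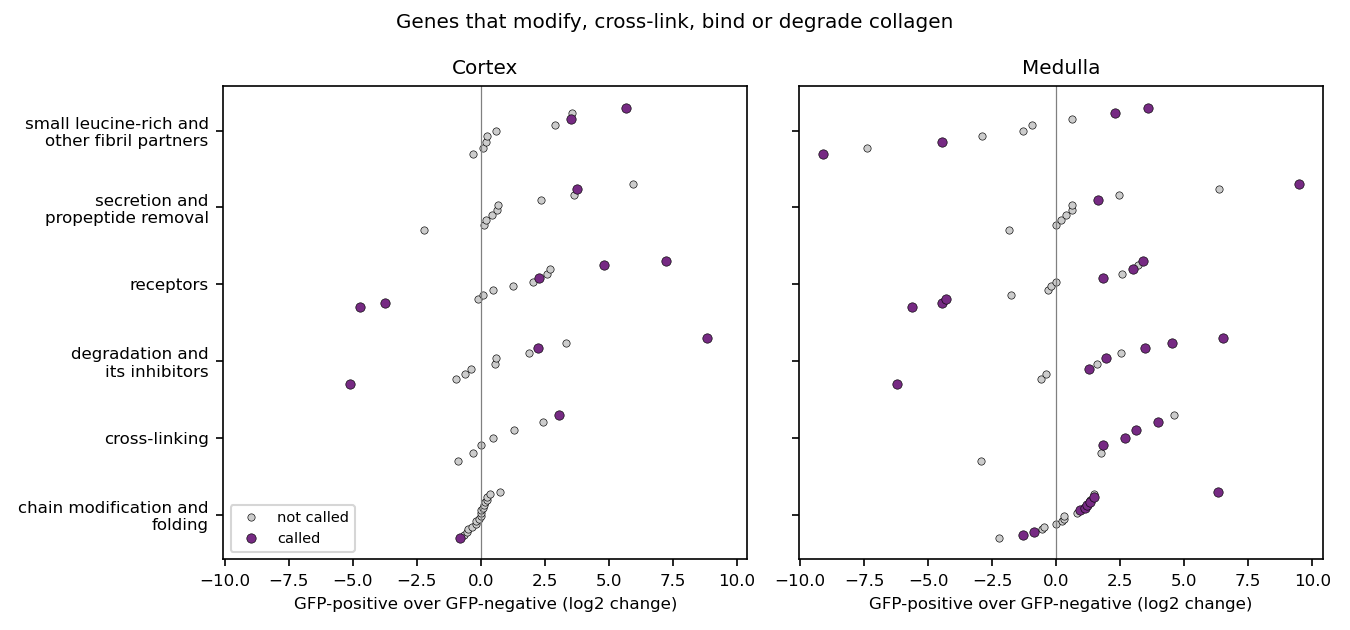
Change between the gates in the cortex (left) and medulla (right) for each tested gene of the 6 lists of collagen-related genes; each point is a gene, and dark points were called. In the cortex 9 points were called to the right and 4 to the left of 0, and in the medulla 22 and 8.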

How the data were processed

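RNA from 180 to 300 sorted cells per library was copied from a dT primer, amplified over 17 PCR cycles without molecular identifiers and sequenced without strand marking, per the labels' protocols, so counting intervals cover counting error only. The authors deposited raw counts of reads per gene for each library; bcl2fastq 2.19.1, GSNAP, featureCounts 1.6.0, DESeq2 1.18.1 and the mouse build mm10 are named in the submitters' processing notes without their roles. The authors' deposited comparison tables supplied symbols, biotypes and gene lengths, and 17 other per-sample columns were not used. The 92 spike-in sequences, with 10 counts in all, were left out of library sizes.

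CPM were computed from the counts and effective library sizes. Genes were filtered by edgeR's filterByExpr, scaled by TMM and fitted with the quasi-likelihood model of edgeR 4.0.16 in R 4.3.3 over all 11 libraries without covariates (7 residual degrees of freedom, 20893 genes, Benjamini-Hochberg threshold 0.05). Each standard error is the size of the log2 change over the square root of its F statistic. The fit was first tested on simulated data. Alternatives were scaling by total counts alone, no filter on low counts, DESeq2 1.42.0, limma 3.58.1 voom, a fit of the compared groups alone, a replicate block, age as a covariate and leaving out each library. Genes named were the called collagens by size of change, up to 12 per comparison, their partner chains, up to 3 called genes by size of change in each collagen-related list and comparison, and the 3 highest chains per kilobase in each group. Other collagens were named to account for every member, and Adgrg1, Colgalt1, Itga1, Loxl3 and Serpinh1 after their values were seen. The members and gene lists were chosen with earlier results of these data known. Exon overlaps came from GENCODE annotation of the same build, and promoters from RefSeq tables on GRCm38.p6.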

Additional observations from a re-analysis of the deposited data

Results flagged for a closer look

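The change between the GFP gates differed between cortex and medulla for 2 collagen genes by the test of that difference in edgeR's quasi-likelihood fit. The cortical change of Col18a1 minus its medullary change was -3.72 on the log2 scale, with 3 cortical GFP-positive libraries at 28.7 to 39.2 CPM and 3 GFP-negative ones at 38.5 to 48.6 CPM. For Col20a1 the same difference was -5.33, and its medullary GFP-negative group rests on 3 counts in 2 libraries. With limma voom the difference of Col20a1 was not called (adjusted p = 0.176).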

How the results depend on the processing

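Leaving out each library in turn gave 13 to 15 called collagens between the cortical gates (16 with all libraries), 13 to 17 between the medullary gates (18), 8 to 13 between GFP-positive tissues (14), 5 to 9 between GFP-negative tissues (11) and 0 to 2 for the difference of gate changes (2). For the collagen-related lists it gave 9 to 13, 15 to 29, 13 to 22, 11 to 20 and 0 to 5 in the same order. Leaving out a library also gave calls between the gates to members uncalled with all libraries, namely Col1a2, Col11a1, Col13a1 and Col27a1. Between the medullary gates limma voom called 21 collagens and DESeq2 20, and between the cortical gates DESeq2 called 21. With limma voom 8 collagens were called between the cortical gates, all higher, 5 between GFP-negative tissues and 1 for the difference of gate changes. For that difference DESeq2 called 5 and age as a covariate 1. Between GFP-negative tissues the replicate block and the fit of the compared groups alone each called 7. The replicate block left 0 of 4 calls for the difference of gate changes in the collagen-related lists. The cause of these shifts was not tested, beyond fewer libraries in the fit where one was left out. Among called named collagens, 513 values under an alternative kept their direction and call, 118 lost the call and 0 reversed. Among uncalled members, leaving out a library changed the sign of 9 of 20 between the cortical gates, 5 of 18 between the medullary gates, 7 of 22 and 9 of 25 between GFP-positive and GFP-negative tissues, and 13 of 34 for the difference of gate changes. Those named as partner chains were Col6a2 in the medulla without GFP-positive library 2 (-0.24), Col11a2 between GFP-positive tissues without medullary library 1 (0.18) or cortical library 3 (0.08), and Col11a2 between GFP-negative tissues without cortical library 2 (0.13). Over all libraries left out in turn these partner chains ran from -0.24 to 1.79, from -0.44 to 0.18 and from -0.75 to 0.13. Same-numbered cortical libraries had deviation correlations of 0.0587, 0.0711 and 0.0337, too low to treat the numbers as pairs, though each library correlated best with its own number, a hint from the data and not from the design. In the medulla age and gate are partly confounded, since both GFP-negative libraries came from older mice. Members near 0.104 to 0.157 CPM are limited by depth.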
